A study of Bos taurus with 15 samples.

Results

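Thymic epithelial cells form the scaffold in which T cells mature. 10 genes that mark these cells or their regions were named for description: FOXN1, PSMB11, PRSS16, AIRE, KRT5, KRT8, KRT18, CLDN4, CLDN7 and EPCAM. They were looked up among the 21475 bovine probes of the array by gene symbol, in the gene name or in brackets in the description, and 7 of the 10 were found that way. PSMB11 was found through its gene number and EPCAM through its accession, since the array carries it under an older symbol, TACSTD1. AIRE, the regulator of self-antigen transcription in the medulla, was not analysed here. Each of the other 9 genes had 1 probe, spotted 2 times on every array, out of 16374 probes that carry one of 14730 gene symbols.

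The outer cortex and the inner medulla of a thymus lobe hold different epithelium. Cortical cells carry a special proteasome and proteases that shape the peptides shown to thymocytes during positive selection, and they make the chemokines and Notch ligands that draw in and commit T cell precursors. Medullary cells show self antigens to nearly mature T cells, so that self-reactive cells are deleted or become regulatory. FOXN1 is the transcription factor that both kinds need to form and to persist.

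The thymuses came from 15 Holstein cows and were taken at slaughter. 7 cows were untreated controls, and 8 had received prednisolone, a synthetic glucocorticoid, orally at 30 mg per head each day for 35 days. The labels give no age for the animals. RNA of 1 animal was hybridised to 1 single-colour array, so a replicate is an animal, and whole tissue was used, so that fewer epithelial cells and less RNA per cell cannot be told apart. Every level below is a log2 signal relative to the 75th percentile of the same array, and it is compared between animals for 1 gene at a time, since different probes have different brightness.

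The 15 arrays lay on 4 slides. Slide 1 held 3 controls and 1 treated animal, slide 2 held 1 control and 3 treated animals, slide 3 held 3 controls and 1 treated animal, and slide 4 held 3 treated animals only. The share of bovine spots well above background ran from 67.1% to 77.7% over the arrays, and the r of 2 arrays, taken over probes that are not independent of each other, was 0.967 to 0.991. The label thymus was checked with 9 genes of immature thymocytes, of which 7 had a probe, and these 7 were all above background, with a summed log2 level of 7.54 to 7.88 in controls and 7.60 to 7.88 in treated animals. Neck tissue that lies against the thymus was checked too. Of 9 thyroid genes 5 were above background on at least 7 arrays, while the defining NKX2-1, SLC5A5 and TSHR were never above it, and their summed level ran from -2.48 to -2.14 in controls and from -2.60 to -1.89 in treated animals. No probe of the 4 parathyroid genes reached 7 arrays (summed level -5.20 to -4.64 against -6.48 to -4.56). The 5 measured salivary genes of 9 ran from -0.999 to 1.20 against -0.62 to 1.49, and the 4 measured genes of airway and stratified epithelium, of 5, from -2.47 to -1.71 against -2.44 to -1.83. Of 6 mesothelial genes 1 reached 7 arrays, with sums of -1.73 to -1.49 against -2.02 to -1.20. The 6 adipocyte genes, 4 of them above background on at least 7 arrays, varied most, from -0.28 to 2.74 in controls and from -0.22 to 3.57 in treated animals. The part of these tissues in the results was not tested.

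No epithelial gene passed the test between prednisolone and control thymuses. All 9 were well above background on at least 7 arrays and so were tested, and none had an adjusted p under 0.05 in limma, with Benjamini-Hochberg adjustment over 16069 probes. Over the array as a whole 0% of probes passed, and the smallest adjusted p was 0.236. 4 of the 9 were higher after prednisolone and 5 were lower, beside 49.9% of all probes higher and 50.1% lower. The median difference of the 9 was -0.011, and that of all probes was -0.00044. At an unadjusted p under 0.05 there was 1 gene of 9 (11.1%), the tight junction gene CLDN7, where the share over all probes was 7.08%. CLDN7 was lower, as were 3.1% of all probes at that p, and no epithelial gene was among those higher, as were 3.98% of all probes. The control and treated ranges overlapped for all 9 genes, while 0.118% of all probes had ranges that did not overlap.

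**Figure D1:**
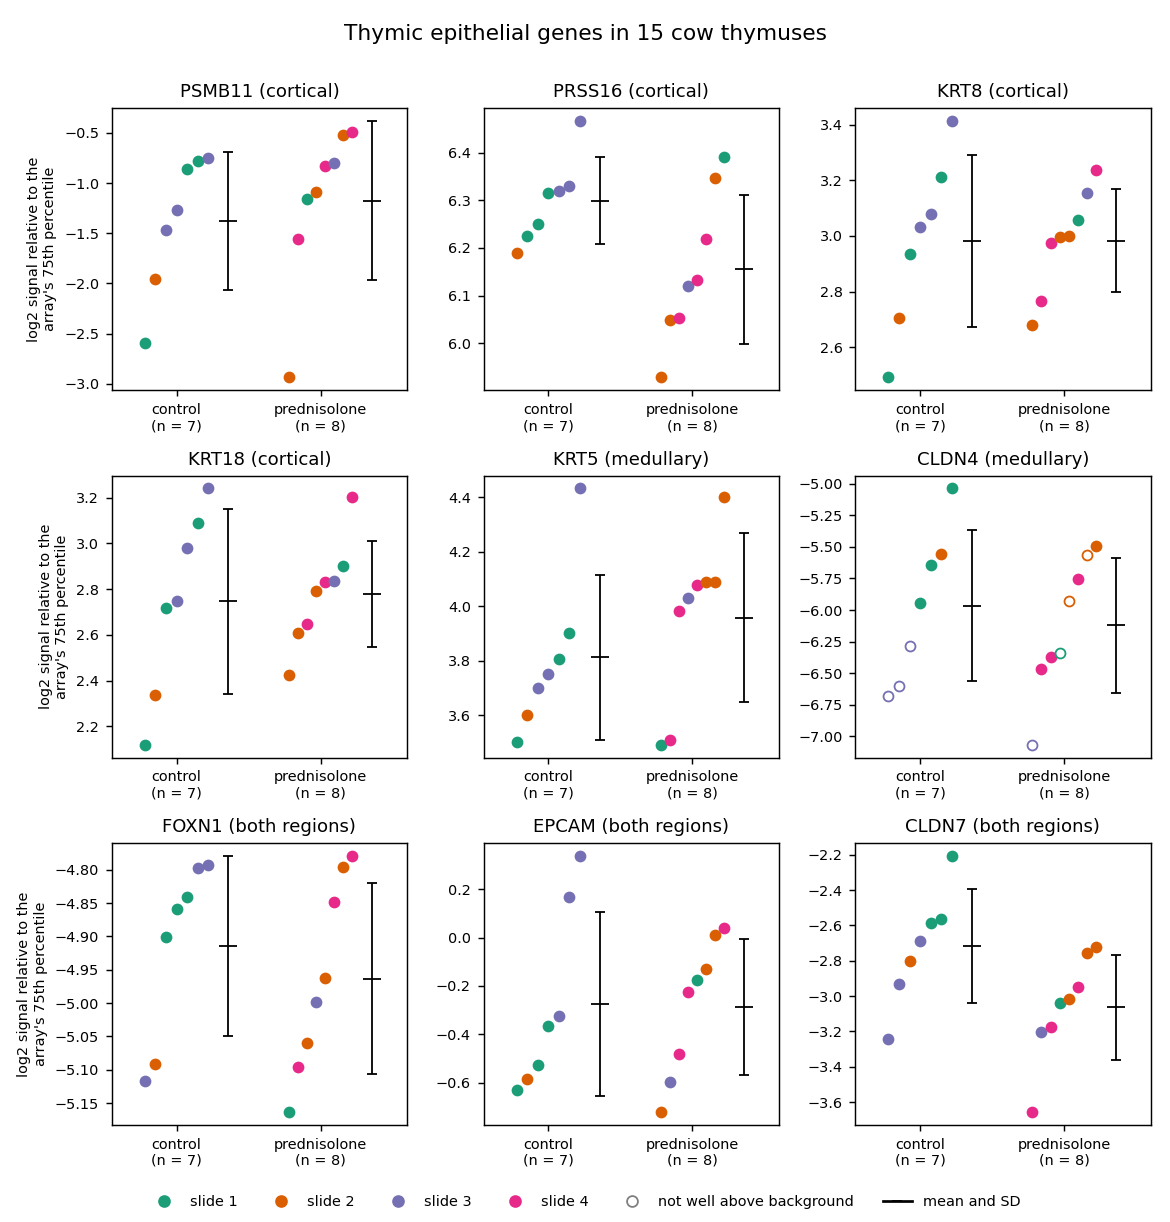
Log2 signal of 9 thymic epithelial genes relative to each array's 75th percentile, 1 point per animal, coloured by slide and set out from low to high within a group, with the mean and SD at the side. Each panel has its own scale. The 2 groups overlap in every panel, the PSMB11 panel spans 5.44-fold between its lowest and highest animal, and open points, not well above background, occur only for CLDN4.

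Of the cortical genes, PSMB11 encodes the proteasome subunit found in cortical epithelium alone. Its level in controls ran from -2.59 to -0.75 with a median of -1.27 (mean -1.38 ± 0.69, SD, n = 7), and in treated animals from -2.94 to -0.49 with a median of -0.96 (mean -1.17 ± 0.79, SD, n = 8). A few animals made most of this spread: control 2, control 3 and prednisolone 8 lay lowest, and the highest animal had 5.44-fold the signal of the lowest. The spread between animals within groups was larger than that of 93.5% of all tested probes. The treated mean was higher by 0.21 ± 0.36 (SE), a ratio of 1.15 with a 95% interval of 0.678 to 1.96 (adjusted p = 0.938, limma). The difference was 0.46 without prednisolone 8, 0.0042 without control 2, and 0.35 ± 0.47 (SE) with slide as a block. On each of the 3 slides with both groups the treated side was the higher one, by 0.25, 0.44 and 0.36. On each of these slides 1 of the 2 groups was a single animal, here and for the genes below. The differences within slides are therefore not replicated.

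PRSS16, a serine protease of cortical epithelium that trims peptides for class II molecules, was among the steadier genes of the array, with a within-group spread larger than that of 10.8% of probes. Controls ran from 6.19 to 6.47 (median 6.32, mean 6.30 ± 0.091, SD, n = 7) and treated animals from 5.93 to 6.39 (median 6.13, mean 6.15 ± 0.16, SD, n = 8). 5 of the 8 treated animals lay below every control, while prednisolone 3 and prednisolone 6 lay above the control median. The treated mean was lower by 9.52%, a log2 difference of -0.14 ± 0.076 (SE), with a 95% interval of the ratio from 0.809 to 1.01. It did not pass (p = 0.0765, adjusted p = 0.724, limma), and the exact two-sided permutation test over 6435 splits gave p = 0.0528. The difference was -0.069 ± 0.096 (SE) with slide as a block. It was 0.13 on slide 1, -0.082 on slide 2 and -0.25 on slide 3.

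KRT8 and KRT18 are partners, keratins that pair into the filaments of simple epithelium and that mark cortical cells. KRT8 ran from 2.49 to 3.41 in controls (median 3.03, mean 2.98 ± 0.31, SD, n = 7) and from 2.68 to 3.24 in treated animals (median 3.00, mean 2.98 ± 0.18, SD, n = 8). KRT18 ran from 2.12 to 3.24 in controls (median 2.75, mean 2.75 ± 0.40, SD, n = 7) and from 2.42 to 3.20 in treated animals (median 2.81, mean 2.78 ± 0.23, SD, n = 8). For both genes the lowest and the highest animal of all 15 were controls, control 2 and control 4. The differences were 0.0022 ± 0.13 (SE) for KRT8 and 0.033 ± 0.16 (SE) for KRT18, with adjusted p of 0.999 and 0.981 (limma). The 95% intervals of the ratio reached from 0.831 to 1.21 and from 0.808 to 1.30, so that changes within those bounds are not distinguishable here. The sign of both differences turned when single animals were left out.

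Of the medullary genes, KRT5 encodes the basal keratin of medullary epithelium and of stratified epithelia. Controls ran from 3.50 to 4.43 (median 3.75, mean 3.81 ± 0.30, SD, n = 7) and treated animals from 3.49 to 4.40 (median 4.05, mean 3.96 ± 0.31, SD, n = 8). Control 6 lay at 4.43 with the next control at 3.90, and 6 of 8 treated animals lay above the control median. The treated mean was higher by 0.15 ± 0.15 (SE), a ratio of 1.11 with a 95% interval of 0.883 to 1.39 (adjusted p = 0.881, limma). Within slides 1, 2 and 3 the difference was -0.24, 0.59 and 0.069. A further probe, which the array describes as similar to keratin 5 but which belongs to another gene number, was above background on 5 arrays and correlated with KRT5 at r = 0.17 over the 15 animals, so it was not used.

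CLDN4, a claudin whose cells include the precursors of AIRE-expressing medullary epithelium, was the 1 gene of the 9 that was not detected on every array. It was well above background on 4 of 7 control arrays and on 4 of 8 treated arrays. Controls ran from -6.68 to -5.04 (median -5.95, mean -5.96 ± 0.60, SD, n = 7) and treated animals from -7.07 to -5.49 (median -6.13, mean -6.12 ± 0.53, SD, n = 8). The 2 spots of an array differed with a median SD of 0.40, so that part of this spread lies within arrays. The difference of -0.16 ± 0.27 (SE) did not pass (adjusted p = 0.937, limma), and without control 1 it was -0.0034. With slide as a block it was -0.48 ± 0.21 (SE; adjusted p = 0.484, limma). Its unadjusted p was under 0.05 in that fit, as it was for 9.57% of all probes. The difference was negative on each slide with both groups, at -0.79, -0.11 and -0.55. These values lie near background: CLDN4 was well above it on 0 of 4 arrays of slide 3. The 1 treated array of slide 1, prednisolone 6, was not well above it either.

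FOXN1, EPCAM and CLDN7 are not confined to either region. FOXN1 ran from -5.12 to -4.79 in controls (median -4.86, mean -4.91 ± 0.14, SD, n = 7) and from -5.16 to -4.78 in treated animals (median -4.98, mean -4.96 ± 0.14, SD, n = 8). It was detected on all 15 arrays at a low processed signal, 26.6 to 70.8 units, and its 2 spots on an array differed with a median SD of 0.50, more than the animals did. The difference was -0.049 ± 0.080 (SE), a ratio of 0.967 with a 95% interval of 0.859 to 1.09 (adjusted p = 0.930, limma). That interval holds for this scaling only. With normexp background correction the difference was -0.73 ± 0.36 (SE; adjusted p = 0.236, limma), where the median of all probes was -0.21. No group of animals stood apart for this gene.

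EPCAM encodes an adhesion molecule used to sort thymic epithelium. Controls ran from -0.63 to 0.34 (median -0.37, mean -0.27 ± 0.38, SD, n = 7) and treated animals from -0.72 to 0.039 (median -0.20, mean -0.29 ± 0.28, SD, n = 8). Controls 4 and 7 lay above all treated animals, and the other 5 controls lay within the treated range. The difference was -0.011 ± 0.16 (SE; adjusted p = 0.994, limma), and its sign turned between slides, with 0.33 and 0.30 on slides 1 and 2 and -0.66 on slide 3.

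CLDN7, a claudin of epithelial cell contacts, had the largest difference of the 9 genes in this fit. Controls ran from -3.24 to -2.21 (median -2.69, mean -2.72 ± 0.32, SD, n = 7) and treated animals from -3.66 to -2.72 (median -3.03, mean -3.06 ± 0.30, SD, n = 8). All 8 treated animals lay below the control median and 4 of 7 controls lay above every treated animal, with prednisolone 7 lowest of all. The treated mean was lower by 21.4%, a log2 difference of -0.35 ± 0.15 (SE), with a 95% interval of the ratio from 0.626 to 0.987. The limma p was 0.0394 before adjustment and 0.698 after it, and the exact two-sided permutation test gave p = 0.0462. With slide as a block the difference was -0.29 ± 0.16 (SE; adjusted p = 0.618, limma), and within slides 1, 2 and 3 it was -0.59, -0.032 and -0.25. It stayed below 0 in 30 of 30 alternative settings, from -0.68 to -0.23. Some of these, such as other probe filters, cannot move the difference, and many only leave out 1 animal.

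**Figure D2:**
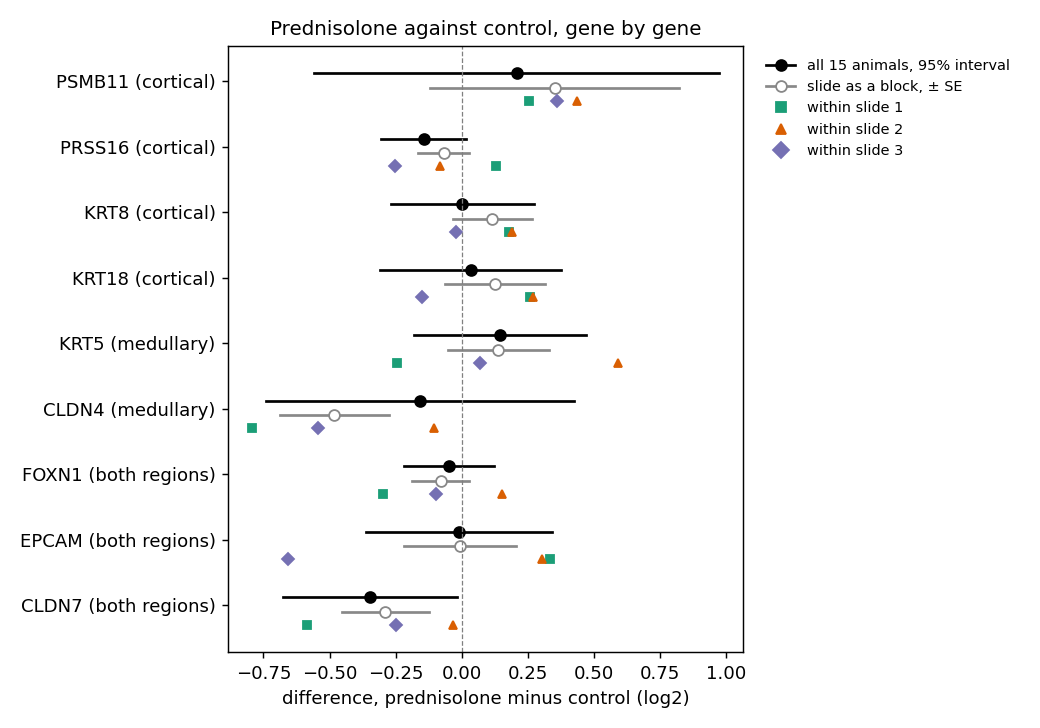
Difference between prednisolone and control (log2) for 9 epithelial genes. Black points and lines give the fit over 15 animals with its 95% interval, open grey points the fit with slide as a block with its SE, and coloured symbols the difference within slides 1, 2 and 3. The interval of CLDN7 alone does not reach 0, before adjustment for the number of probes. PSMB11, CLDN4 and CLDN7 keep their sign on all 3 slides, where 1 of the groups is a single animal each time.

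Cortical and medullary genes were set side by side without a test, since they were chosen with results of these data known. Of the 4 cortical genes 3 were higher and 1 was lower after prednisolone, of the 2 medullary genes 1 was higher and 1 was lower, and the 3 genes of both regions were lower. The signs are those of this scaling: FOXN1 and KRT8 turned with quantile normalization (0.0035 and -0.0025), EPCAM with median centring (0.011) and PRSS16 with normexp background correction (0.033). Each animal's mean deviation over the 4 cortical genes, relative to the mean of all animals, ran from -0.61 to 0.29 in controls and from -0.65 to 0.35 in treated animals. Over the 2 medullary genes it ran from -0.35 to 0.46 and from -0.44 to 0.53. The groups overlapped almost entirely on both scales.

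Slides were compared as well, since they differed for many genes. An F test of slide, with treatment in the model, passed for 30.6% of 16053 probes (limma, adjusted p under 0.05) and for 1 of the 9 epithelial genes, CLDN4 (adjusted p = 0.0061). CLDN4 averaged -5.74 on slide 1, -5.64 on slide 2, -6.66 on slide 3 and -6.20 on slide 4, and it was well above background on 3 of 4, 2 of 4, 0 of 4 and 3 of 3 arrays. The lowest mean was that of slide 3, which held 3 controls and 1 treated animal. The call for CLDN4 stood with quantile normalization, where 3765 probes (23.5%) passed and FOXN1 did too, and with median centring, where 6729 probes (41.9%) passed and KRT18 did too. It was lost with normexp, where 144 probes passed, and with the authors' deposited values, where 3169 of 14905 passed and FOXN1 was the epithelial gene among them. The adjusted p of the other 8 genes ran from 0.144 for CLDN7 to 0.925 for FOXN1.

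Across animals, the cortical keratins moved as a pair. KRT8 and KRT18 correlated with Pearson r = 0.91 and Spearman rho = 0.88 over 15 animals (permutation p = 1e-05 and 3e-05, the former the smallest that 1e+05 permutations can give; adjusted over 36 pairs, 0.00036 and 0.0011). The relation was 0.97 in controls and 0.74 in treated animals. It was 0.90 with slide means removed (permutation p = 0.00093, adjusted p = 0.0335), 0.82 without control 2 and control 4, the animals farthest from the KRT8 median (permutation p = 0.00075, adjusted p = 0.027), and 0.96 over the 12 animals outside slide 4. Among 11692 other genes, KRT18 had the highest correlation with KRT8 once slide and treatment means were removed, at r = 0.90, and KRT8 came in place 2 for KRT18. The genes are neighbours in the cattle genome, with 0 protein-coding genes between them in the RefSeq assembly ARS-UCD2.0, whereas KRT5 lies 14 protein-coding genes from KRT8 and correlated with it at r = 0.33 (permutation p = 0.237, adjusted p = 0.502).

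PSMB11 and KRT18 were the other pair of 36 to pass, with r = 0.72 and rho = 0.53 (permutation p = 0.00248 and 0.046, adjusted p = 0.0446 and 0.237). The pair did not pass without prednisolone 8 and control 2, at r = 0.49 (permutation p = 0.0869, adjusted p = 0.683). It did not pass with slide means removed either, at r = 0.68 (permutation p = 0.016, adjusted p = 0.198). Leaving out the 2 outermost animals also narrows the range, so it cannot show what the relation rests on. PSMB11 and KRT8 gave r = 0.67 and rho = 0.46 (permutation p = 0.00678 and 0.083, adjusted p = 0.0814 and 0.374). Over all 36 pairs r ran from -0.54 to 0.91 with a median of 0.12, and 22 pairs were above 0. The lowest was CLDN4 with KRT8, at r = -0.54 (permutation p = 0.0386, adjusted p = 0.199), which was -0.24 with slide means removed.

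Some pairs were higher once slide means were removed, though none of them passed. FOXN1 and KRT5 went from r = 0.55 (rho = 0.55, permutation p = 0.035 and 0.0363, adjusted p = 0.199 and 0.237) to 0.69 (permutation p = 0.0174, adjusted p = 0.198). PRSS16 and EPCAM went from 0.55 (rho = 0.53, permutation p = 0.0331 and 0.0439, adjusted p = 0.199 and 0.237) to 0.69 (permutation p = 0.0275, adjusted p = 0.198). Without the 2 animals farthest from the median of the first gene they were 0.42 and 0.31.

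**Figure D3:**
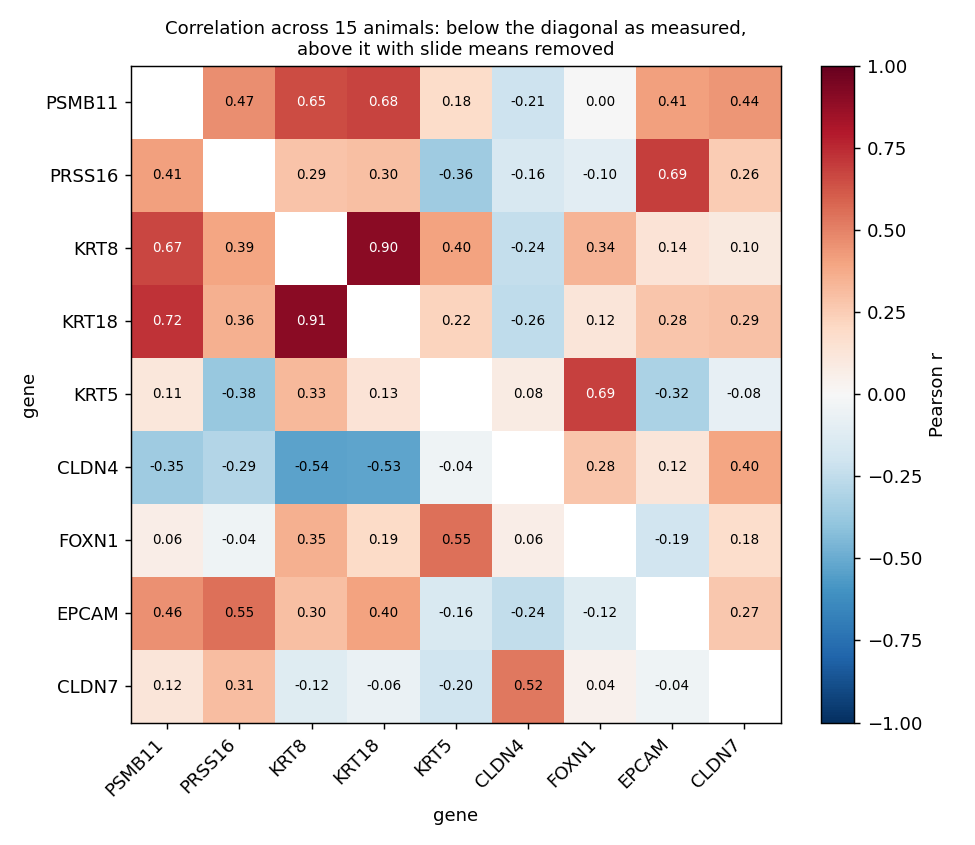
Pearson r between 9 epithelial genes over 15 animals, as measured below the diagonal and with slide means removed above it. The deepest cell on both sides is KRT8 with KRT18, at 0.91 and 0.90, and the lowest is CLDN4 with KRT8 below the diagonal, at -0.54.

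**Figure D4:**
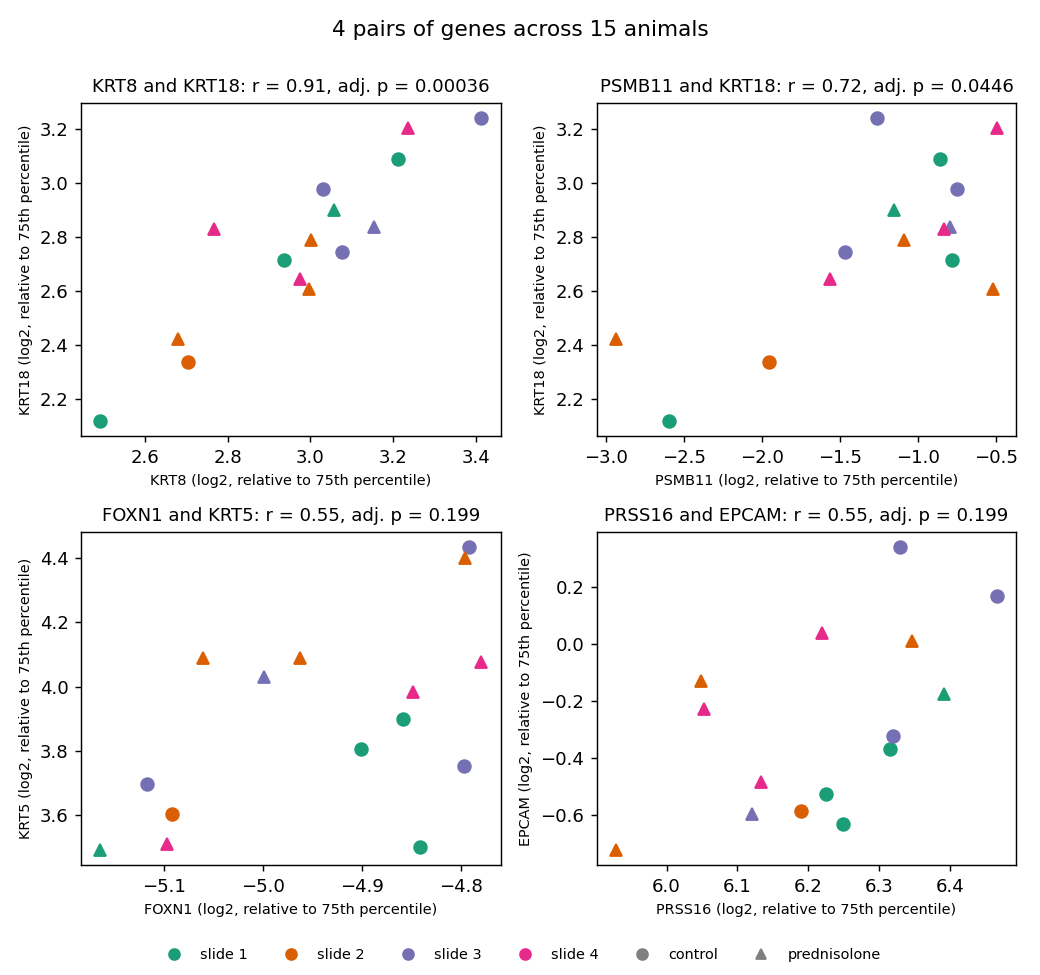
Levels of 4 pairs of genes in 15 animals (log2, relative to each array's 75th percentile), with circles for controls, triangles for prednisolone and colours for slides. KRT8 and KRT18 rise together over the whole range. In the PSMB11 and KRT18 panel 3 animals have PSMB11 below -1.90, and their part in the slope was not tested.

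Other cortical genes helped to place the low PSMB11 values. 6 of 7 further genes of cortical epithelium had a tested probe: CTSV, the cathepsin that cortical cells use to cut the invariant chain, the chemokines CCL25 and CXCL12, the Notch ligand DLL4, the endocytic receptor LY75, and TBATA, a gene of thymic stroma. Of 24 relations between these 6 and the 4 cortical genes above, 2 had an adjusted p under 0.05 by Pearson r. PSMB11 correlated with CCL25 at r = 0.84 and rho = 0.72 (permutation p = 1e-04 and 0.0034, adjusted p = 0.0018 and 0.0328), and with CTSV at r = 0.82 and rho = 0.79 (permutation p = 0.00015 and 6e-04, adjusted p = 0.0018 and 0.0144). With slide means removed they were 0.82 and 0.83. Without prednisolone 8 and control 2 they were 0.62 (permutation p = 0.0236, adjusted p = 0.16) and 0.71 (permutation p = 0.0059, adjusted p = 0.0942). Neither passed over these fewer animals, which also span a narrower range of PSMB11. LY75 had r = -0.23 with PSMB11 and rho = -0.27 (permutation p = 0.408 and 0.328, adjusted p = 0.446 and 0.438). By Spearman rho KRT18 with DLL4 passed as well, at rho = 0.70 (permutation p = 0.0041, adjusted p = 0.0328). The Pearson r of that pair was 0.61 (permutation p = 0.0156, adjusted p = 0.0749). Without control 2 and control 3 it was 0.41 (permutation p = 0.1635, adjusted p = 0.369).

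Prednisolone 8, the animal with the lowest PSMB11, was looked at across all 15 genes after its value had been seen. It was the lowest of the 15 animals for 6 of them, PSMB11, PRSS16, EPCAM, CCL25, CTSV and TBATA. PSMB11 is among the 6 because it was used to pick the animal, and CCL25 and CTSV correlated with it above. The share of all probes with this animal lowest was not counted. The same animal was the highest of the 15 for other genes of the wider epithelial lists, such as KRT1, KRT19, CLDN1, PERP, TP63, PAX9 and EYA1. Its PSMB11 signal was 3.90-fold below the median of the other animals, CCL25 2.73-fold, TBATA 1.63-fold, CTSV 1.49-fold, EPCAM 1.36-fold and PRSS16 1.24-fold. It came in place 2 from the lowest for KRT8 and CXCL12, in place 3 for KRT18, in place 5 for FOXN1 and in place 6 for DLL4 and CLDN7. It came in place 9 for the cortical LY75, in place 12 for the medullary CLDN4 and in place 13 for the medullary KRT5. The immature thymocyte genes had a summed level of 7.60 in this animal, the lowest of the treated animals, though within the control range. The adipocyte genes had 3.22, above all controls, while prednisolone 1, with 3.57, had PSMB11 at -0.80. Control 2, with the next lowest PSMB11 and the lowest KRT8 and KRT18, had an adipocyte sum of 0.028. Control 3, with PSMB11 at -1.95 and low KRT8 and KRT18, had a sum of 2.74, the highest of the controls. The part of fat in these values was not tested.

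**Figure D5:**
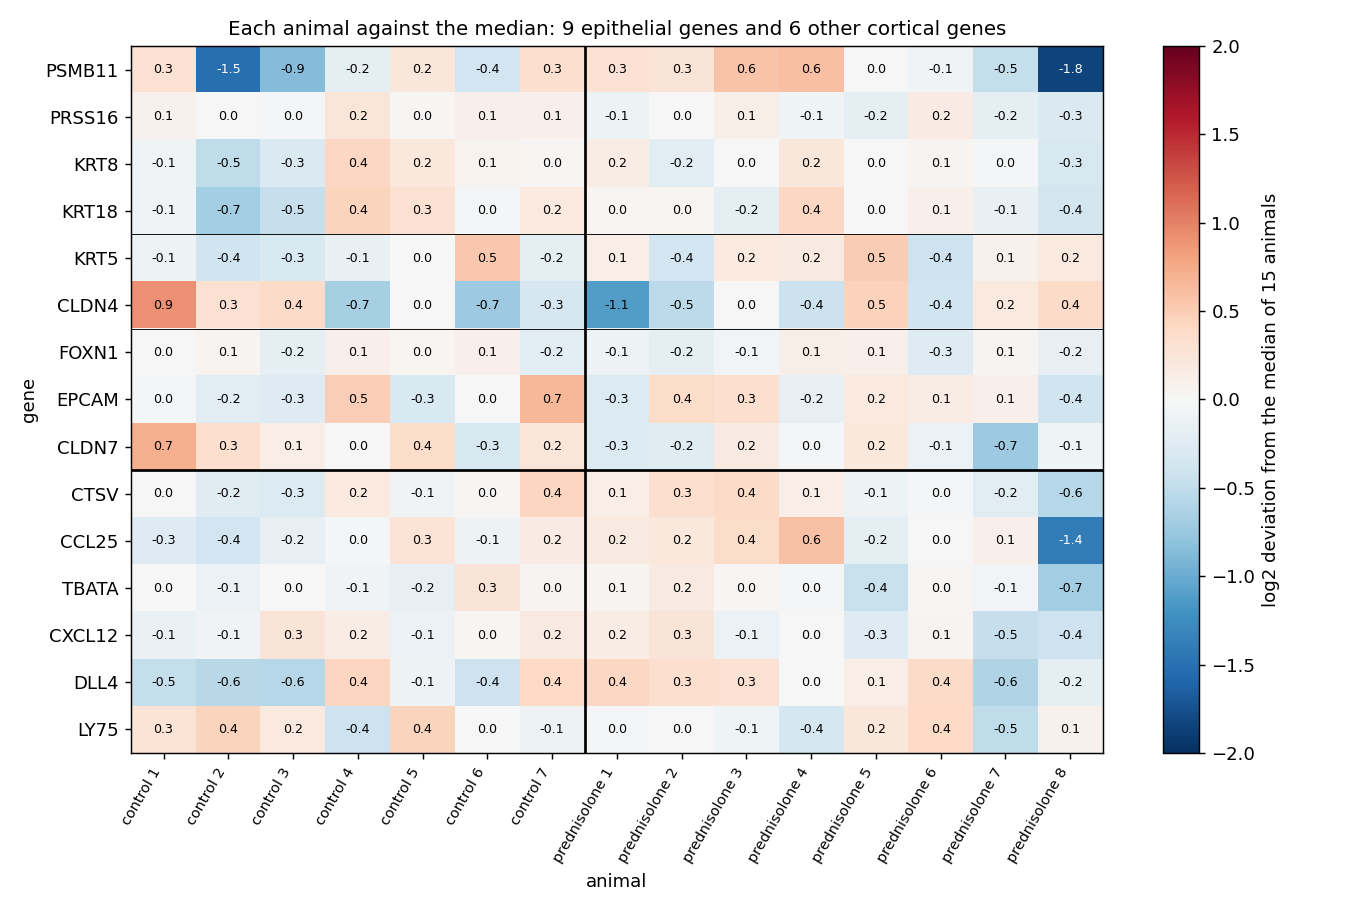
Log2 deviation of each animal (columns, 7 controls then 8 treated) from the median of 15 animals, for 9 epithelial genes above the line and 6 other cortical genes below it. Prednisolone 8 is the darkest blue for PSMB11 and CCL25, and control 2 and control 3 are blue for PSMB11, KRT8 and KRT18 together.

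The genes whose pattern over the animals was most like each of the 9, after slide and treatment means were removed, are given as a description over 15 animals and 11692 genes, without a test. The 3 nearest of each had r between 0.79 and 0.95, high in part because they were picked as the highest. As measured, without removing those means, their r ran from 0.13 for KRT5 with B4GALNT3 to 0.91 for KRT8 with KRT18. The values that follow are with the means removed. PSMB11 was nearest to FADS2, RGS7 and FRAS1 (0.93, 0.93 and 0.92), PRSS16 to SGPP2, AKAP9 and DGAT1 (0.86, 0.80 and 0.79), and EPCAM to IRF5, IL33 and CH25H (0.95, 0.93 and 0.93). KRT8 was nearest to KRT18, CRELD2 and CACNB3 (0.90, 0.89 and 0.88), and KRT18 to CXCL5, KRT8 and MEIS2 (0.90, 0.90 and 0.88). KRT5 was nearest to B4GALNT3, TREX1 and LRRC10B (0.87, 0.86 and 0.85), CLDN4 to RNF111, P2RX4 and FCGRT (0.85, 0.85 and 0.81), CLDN7 to BPHL, XAF1 and MAGED2 (0.92, 0.91 and 0.89), and FOXN1 to CNGA4, ABCC8 and PPP1R13B (0.95, 0.93 and 0.92). KRT8 and KRT18 were the only members among each other's 3 nearest genes.

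Wider lists of epithelial genes gave no gene that passed either, in either direction. They are read beside all 11750 genes, of which 50.5% were higher after prednisolone with a median difference of 0.0013. Of the 6 other cortical genes 2 were higher and 4 lower, with a median of -0.057, and the 2 with the smallest p were DLL4 at 0.28 ± 0.19 (SE; adjusted p = 0.797) and CXCL12 at -0.14 ± 0.11 (SE; adjusted p = 0.831, limma). Of 9 other medullary genes 6 were higher and 3 lower (median 0.066), led by CCL19, a chemokine that draws maturing thymocytes into the medulla, at 0.24 ± 0.17 (SE), and the protease inhibitor SPINK5 at -0.18 ± 0.23 (SE). Of 6 transcription factors of thymus organogenesis 2 were higher and 4 lower (median -0.11), with MEIS1 at 0.18 ± 0.12 (SE) and PAX1 at -0.15 ± 0.11 (SE). Of 18 general epithelial genes 13 were higher and 5 lower (median 0.061), with SFN, which encodes an epithelial 14-3-3 protein, at 0.15 ± 0.076 (SE) and RAB25, a GTPase of epithelial membrane traffic, at -0.16 ± 0.095 (SE).

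Signals to the epithelium and to thymocytes were listed too. Of 11 genes of the receptor and NF-kappaB pathways that drive medullary growth 9 were higher and 2 lower (median 0.083). TNFSF11, the RANK ligand, was at -0.23 ± 0.14 (SE), and MAP3K14, the kinase NIK, was at 0.14 ± 0.080 (SE), though its dimmer probe gave -0.017. Of 9 stromal growth factor genes 5 were higher and 4 lower (median 0.030), with FGF7, the keratinocyte growth factor, at 0.53 ± 0.26 (SE; adjusted p = 0.701, limma) and IGF1R at 0.13 ± 0.11 (SE). Of 6 thymocyte support factors, which are signals to thymocytes, 5 were higher and 1 lower, with a median of 0.18 that was 0.43 with slide as a block. All of them but TSLP were already in the cortical or medullary lists, so this is not a separate set of genes. IL7, KITLG and IL15 reached too few arrays to be tested. The 2 with the smallest p were again DLL4 and CCL19. Some medians turned sign with the slides or animals used. That of the organogenesis factors was 0.16 when slide 4 was left out and 0.047 with slide as a block, that of the other cortical genes was 0.016 with slide as a block and 0.026 without prednisolone 8, and that of the stromal growth factors was -0.030 without prednisolone 8. That of the other medullary genes was -0.023 with slide as a random block and -0.048 without prednisolone 5. With normexp, which moved the median of all probes to -0.21, the medians were -0.52 for organogenesis factors, -0.32 for general epithelial genes, -0.42 for stromal growth factors and -0.036 for the other medullary genes, so that the last 3 turned sign.

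With AIRE itself not analysed, its known partners and the tissue-restricted antigens of the medulla were described. Of 13 AIRE partners 8 were higher and 5 lower (median 0.020). KAT7, a histone acetyltransferase, was at 0.52 ± 0.14 (SE; adjusted p = 0.496, limma), on a probe above background on 2 of 7 control and 5 of 8 treated arrays, and PIAS1, a SUMO ligase, was at 0.28 ± 0.16 (SE) but at -0.0067 with slide as a block. Of 7 measured tissue-restricted antigen genes 5 were higher and 2 lower, with a median of 0.035 that was -0.24 with slide as a block. FABP2, a fatty acid binding protein of the gut, was at -0.38 ± 0.32 (SE), and RBP3, a retinal protein, at 0.097 ± 0.090 (SE). With normexp the median of these 7 genes was -0.71. The 3 probes of the liver gene ALB reached too few arrays to be tested, with the brightest at 0.40 in prednisolone 3 and 2.41 in prednisolone 4 and not well above background on the other 13 arrays. Without these 2 animals the difference of PSMB11 was -0.016 and those of KRT8 and KRT18 were -0.042 and -0.0087.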

How the data were processed

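Per the labels, total RNA of 7 control and 8 prednisolone thymuses was hybridised to arrays of Agilent design 015354 with 1 dye. Feature Extraction 9.5.1.1 gave each spot's background-subtracted and detrended intensity in the deposited scanner files, per the file headers, with other columns that flag spots as well above background, saturated or outlying. The authors' own linear intensity values, deposited apart, have column medians of 188.5 to 274.1 and an unknown centring, and rank the spots as the scanner signal does (Spearman rho 0.99963 or more). The submitters' processing notes name R 2.11.1.

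The processed signal was taken to log2 and centred on the 75th percentile of an array's bovine spots. Spots flagged as outliers were left out, and the spots of a probe were averaged. A probe counted as well above background on an array if any of its spots was flagged so. A probe was tested if it was well above background on 7 or more of the 15 arrays, with limma 3.58.1 in R 4.3.3, over all 16069 probes. The fit over all 15 animals dropped and imputed no sample. Symbols came from gene number, accession or description, matched to RefSeq's cattle genes (ARS-UCD2.0). Where a gene had several probes, the brightest spoke for it. The number of arrays limits the precision, and slide was read from the file headers. Replicate numbers follow the order of the samples and pair nothing. Pairs of genes were tested by 1e+05 permutations, or 20000 without the 2 farthest animals and for the other cortical genes.

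The genes, lists and tests were chosen with earlier results of these data known. The rule for names took all 10 epithelial genes, the genes of each list that passed or else the 2 with the smallest p, and the 3 genes most alike each gene. Alternatives were other scalings, background correction and filters, the authors' values, slide as a block, variance models, array weights and each animal left out. The calculation was tested on simulated data.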

Additional observations from a re-analysis of the deposited data

Results flagged for a closer look

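In the 18 groups formed by 9 genes and 2 treatments, 2 single animals stood apart from the rest of their group, and chance alone marks about 5% of such groups. PSMB11 in prednisolone 8 was the lowest of its group at -2.94, with the next animal at -1.56. KRT5 in control 6 was the highest of its group at 4.43, with the next control at 3.90. For PSMB11 the difference between groups was 0.46 without prednisolone 8, against 0.21 with all animals, and for KRT5 it was 0.25 without control 6, against 0.15; neither passed with or without that animal.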

How the results depend on the processing

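Over the alternatives the count of probes that changed between groups was 0 in 28 of 30 settings, 1 with quantile normalization, and 0 to 3 with single animals left out, 3 of them without prednisolone 1. No epithelial gene passed in any setting, and the smallest adjusted p of any was 0.236, with normexp, which also moved the median of all probes to -0.21. CLDN7 and CLDN4 were lower and KRT5 was higher in all settings run (30, 29 and 30), though some settings, such as other probe filters, cannot move a difference. Differences that turned sign were those of FOXN1 with quantile normalization (0.0035), of PRSS16 with normexp (0.033) and with quantile normalization and slide as a block (0.025), of EPCAM with median centring (0.011) and array weights (0.10), and of KRT8 with quantile normalization (-0.0025), the authors' values (-0.012) and without slide 4 (-0.0035), where KRT18 was -0.035. Without prednisolone 3 and 4, chosen after seeing the data, PSMB11 was -0.016, KRT8 -0.042 and KRT18 -0.0087. With single animals left out KRT8 ran from -0.079 to 0.074, KRT18 from -0.072 to 0.12 and EPCAM from -0.070 to 0.091. The pairs that passed went from 2 to 1 with slide means removed and to 1 without the 2 farthest animals. The slide test, repeated in other scalings after seeing the data, passed for 4911 probes, for 3765 with quantile normalization (FOXN1 and CLDN4), for 6729 with median centring (KRT18 and CLDN4), for 144 with normexp (no epithelial gene) and for 3169 of 14905 with the authors' values (FOXN1 in place of CLDN4); the cause was not tested. No paired analysis was possible because the labels give the groups no shared replicate numbers. Signal close to background limits CLDN4 and FOXN1, and an uneven spread of groups over slides limits all comparisons.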
